A study of Homo sapiens with 4 samples.

Results

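Mitochondrial ribosomal protein mRNAs were examined for binding by LARP4, a La-related RNA-binding protein, in HEK293 cells, a line derived from human embryonic kidney. The members were 10 nuclear genes, MRPL12, MRPL28, MRPL41, MRPS34, MRPL54, MRPL34, MRPS12, MRPL23, MRPL11 and MRPS2. They were given by name, by a rule that used no measured value, but were chosen with earlier results of these data known. Each gene was given a stranded window on hg19, and every interval of the deposited lists that overlapped the window on its strand was taken. This gave 78 of 171755 clusters in LARP4 eCLIP replicate 1, 83 of 191899 clusters in replicate 2 and 45 of 7153 regions in the authors' series-wide list. All 10 windows held intervals in all 3 lists.

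The series used enhanced crosslinking and immunoprecipitation (eCLIP), in which ultraviolet light fixes a protein to the RNA it touches and an antibody then recovers both. There were 2 replicates of LARP4 eCLIP and 2 of size-matched input, the RNA of the same gel range without antibody. All samples were HEK293 cells given 400 mJ/cm2 at 254 nm, with no other treatment named. The description of the eCLIP samples carries the mark WT, and no genotype is named for the inputs. The eCLIP samples were recovered with an antibody to LARP4 and the inputs with none. The values are the authors' log2 folds of eCLIP over input for each cluster, a short stretch of RNA that gathered reads, with the authors' −log10 p. The lists give no reads, so the depth behind a cluster is unknown. Input has no list of its own and is present only within these folds. The labels call the replicates biological without saying whether they were separate cultures.

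Mitochondrial ribosomes translate the few proteins that mitochondrial DNA encodes, which are parts of the respiratory chain and of the ATP synthase. Their ribosomal RNAs are made inside the organelle, but all of their proteins are encoded in the nucleus, made on cytosolic ribosomes and imported. Names with L belong to the large subunit and names with S to the small one. LARP4 is known to bind poly(A) and the poly(A)-binding protein and to stabilise mRNAs and their poly(A) tails. The aim given in the labels was to identify LARP4 targets, and the title names nuclear-encoded mitochondrial mRNAs. RefSeq lists 77 protein-coding symbols that begin with MRPL or MRPS, and those beyond the 10 members were not analysed here.

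Transcript starts are shown because another La-related protein, LARP1, is known to recognise mRNAs that begin with a C and a run of pyrimidines, the 5′ terminal oligopyrimidine motif of cytosolic ribosomal protein mRNAs. Of the members, 9 had an entry in the RefSeq promoter table (GRCh38.p14) and 6 had a single listed start. Each line gives 20 bases before the start in lower case and the first 10 transcribed bases in capitals, 5′ to 3′ on the strand of the gene.
MRPL12: gcgcgaggtacggctagagcGTCATTTCCG
MRPL28: ggaggagggccaggcgcggcAGATCGGCTT
MRPL41: ggccgcggccaatcggagccGCTCTTGCTG
MRPS34: acttccggccggaccgctgaGGACGCGGAC
MRPL54: ttccggaaacgtgcacttgcAAGCTGCCCG
MRPL11: ctcacctgccctagcctaacGTGAGGACCC
These lie at chr17:81703347-81703376 (+), chr16:370529-370558 (-), chr9:137551859-137551888 (+), chr16:1773125-1773154 (-), chr19:3762662-3762691 (+) and chr11:66438839-66438868 (-) of GRCh38.p14, and they were not set against the hg19 clusters. All 6 starts are a purine, so none opens with a C followed by 4 bases that are each C or T. Over all 14 entries of the 9 members, 1 of the 2 MRPS2 starts did, against 4.07% of 35116 entries in the table. Only the strand of the gene was searched, at the listed start. The sequences under the clusters were not used here.

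LARP4 eCLIP was at least 8-fold over input at most clusters of these genes in both replicates. A cluster was counted as enriched when its log2 fold was at least 3, which is 8-fold, and its −log10 p at least 3. By that measure 45 of the 78 member clusters were enriched in replicate 1, or 57.7% (95% Wilson interval 46.6 to 68.0), where 5.01% of all clusters in that list were. In replicate 2 it was 51 of 83, or 61.4% (50.7 to 71.2), where 5.50% of all clusters were. The intervals treat clusters as independent, which clusters of 1 gene are not, and cover counting error only. The median −log10 p of member clusters was 14.2 in replicate 1 and 10.7 in replicate 2, against 0.57 and 0.54 over all other clusters. Most other clusters thus missed the −log10 p threshold whatever their fold, so the shares do not contrast folds alone. The median log2 fold of member clusters was 3.19 in replicate 1 and 3.38 in replicate 2, against 1.28 and 1.30 over all other clusters. Member clusters had no log2 fold below 0, where 11.6% and 11.2% of all other clusters did. In each replicate 6 member clusters, all in MRPL23, MRPS2 and MRPL11, had a −log10 p under 3, the lowest being 0.056 in replicate 1 and 0.0053 in replicate 2, both in MRPL23. On the chromosomes that carry the members, other clusters had medians of 1.43 and 1.47 and enriched shares of 7.14% and 8.09%. Because the genes were named with results of these data known, these shares were not tested.

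All 10 members had an enriched cluster in replicate 1, in replicate 2 and therefore in both, and all 10 had a region in the authors' series-wide list. A run of clusters on 1 strand without a gap over 5 kb was used as a locus to give this a scale. Of 11332 loci without a member that held 7 to 27 clusters, the span the members covered, and at least 1 in each replicate, 10.2% had an enriched cluster in both replicates, and 10.9% had a series-wide region within their span. A locus can join or split genes, so it is not the same unit as a gene window. The genes were also named with results of these data known, so the 10 of 10 was not tested against these shares. At a log2 fold of at least 4, 7 members still had such a cluster in both replicates, where 2.90% of the 11332 loci did, and the exceptions were MRPL34, MRPL11 and MRPS2.

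Levels differed among the members. The level of a gene was taken as the mean log2 fold of its clusters, weighted by width. MRPL41 had 4.67 and 5.13 in replicates 1 and 2, the highest mean of the 10 at 4.90 ± 0.32 (SD, n = 2, as for all levels here). MRPL54 followed at 4.76 ± 0.08, then MRPS12 at 3.70 ± 0.14, MRPS34 at 3.62 ± 0.52 and MRPL28 at 3.56 ± 0.01. Below them came MRPL23 at 3.40 ± 0.10, MRPL12 at 3.37 ± 0.19, MRPL34 at 3.20 ± 0.12, MRPL11 at 3.08 ± 0.16 and MRPS2 at 2.88 ± 0.41. These means run from 29.8-fold over input for MRPL41 to 7.37-fold for MRPS2. The median over the 10 genes was 3.48, and the width-weighted mean of all other clusters was 1.38 in replicate 1 and 1.37 in replicate 2.

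Most steps in that order were no larger than the spread of the replicates. Of 9 steps between neighbours, the replicate values did not overlap at 2, from MRPL54 down to MRPS12 (a difference of 1.06) and from MRPL28 down to MRPL23 (0.16). By this level MRPL41 and MRPL54 therefore stood above the other 8, while their own values overlapped. The order depended on the measure. By the highest cluster MRPL23 came first at 6.37 ± 1.37, before MRPL54 at 5.92 ± 0.18 and MRPL41 at 5.81 ± 0.20. By the width-weighted mean of the series-wide regions MRPL23 had 5.18, MRPL41 4.89 and MRPL54 4.66. The 7 large-subunit genes had a median level of 3.40 and the 3 small-subunit genes one of 3.62, a difference that was not tested. The lowest level, that of MRPS2, was still above those of 95.6% of the 11332 loci, and that of MRPL41 was above 99.9%.

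**Figure D1:**
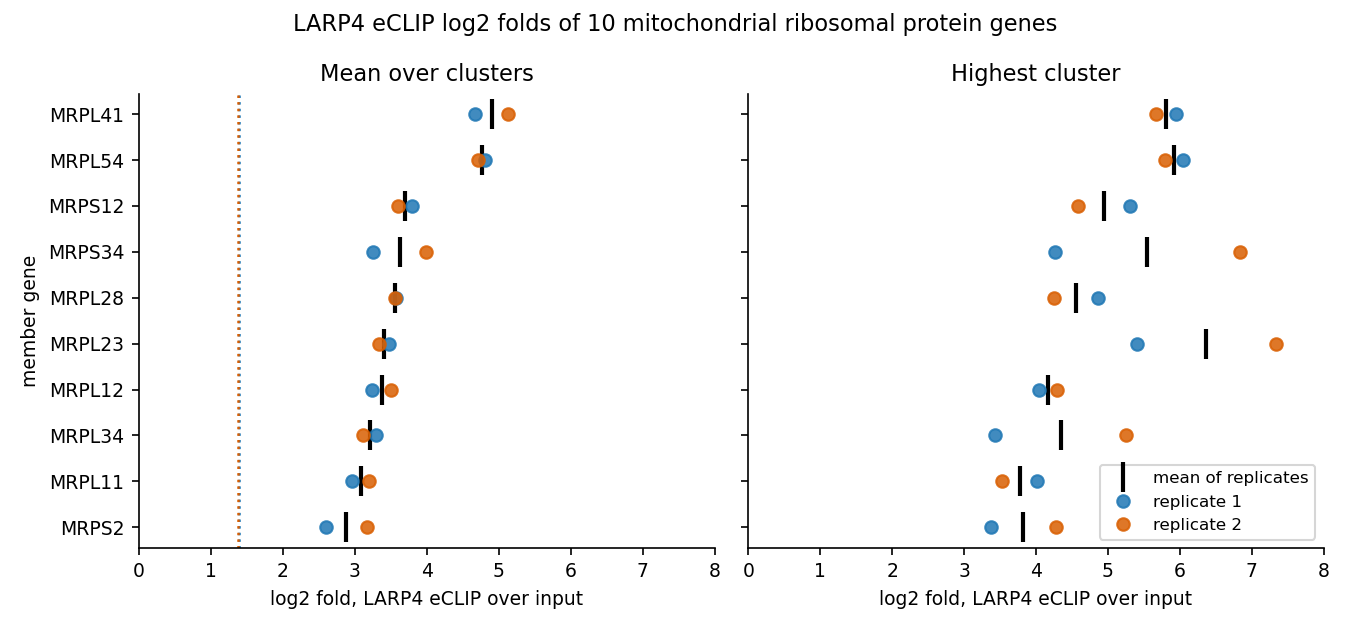
Log2 fold of LARP4 eCLIP over input for the 10 genes, with a point for each replicate and a bar for the mean of both, as the width-weighted mean over clusters (left) and as the highest cluster (right). Dotted lines on the left mark the same mean over all other clusters, 1.38 and 1.37, and every member lies to their right.

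The mitochondria-specific proteins of the large subunit, MRPL41 and MRPL54, had the 2 highest levels. MRPL41 was the only member with every cluster enriched in both replicates, 6 of 6 in each. Its window is chromosome 9, 140446200 to 140447100 (+), and the authors' values of its 6 series-wide regions rose in steps along it. From 5′ to 3′ these log2 folds were 3.84, 4.11, 4.52, 4.65, 5.05 and 5.93. Here and for the other genes, a replicate's value at a region is that of the cluster sharing most bases with it. Replicate 2 rose at each step too, but replicate 1 fell from 4.40 at 140446535 to 140446587 to 3.84 at 140446588 to 140446681. The last region, at 140446896 to 140446980, had 5.95 in the replicate 1 cluster and 5.67 in the replicate 2 cluster behind it, a mean of 5.81 ± 0.20 (SD, n = 2). It ended 1 base short of the last base covered by any cluster of the gene.

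MRPL54 had few clusters, 4 in replicate 1 and 3 in replicate 2, at both ends of its window (chromosome 19, 3762600 to 3767600, +). The region of 145 bases at 3767386 to 3767530, the last covered stretch, had log2 folds of 5.28 and 5.79 in replicates 1 and 2, and an authors' value of 5.36. Replicate 1 covered it with a second cluster of nearly the same width, at 4.57. A neighbouring region at 3767265 to 3767341 was 6.04 in replicate 1 and only 2.82 in replicate 2, and so was not enriched in the second. The start of the window held a weak region at 3762716 to 3762774, with 2.95 and 3.26. That middle region had the widest gap between replicates of the 3, with an SD of 2.28.

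MRPS34, the mitochondria-specific member of the small subunit, showed the widest spread of the 10. In its window on chromosome 16, 1821800 to 1823200 (-), the region at 1821936 to 1821979 had log2 folds of 3.53 in replicate 1 and 6.83 in replicate 2, and an authors' value of 5.12, the highest of the gene. The next one, at 1821980 to 1822057, had 3.47 and 5.97. Both were enriched in both replicates, but their sizes differed by more than 2 log2 units. The 2 other regions of the gene agreed better, with 3.89 and 3.84 at 1822088 to 1822145, and 4.26 and 3.53 at 1822195 to 1822211. All 4 lay on the 3′ side of the window. On the 5′ side, replicate 1 had a mean of 2.96 and replicate 2 one of 2.35.

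MRPL12 and MRPL11 belong to the stalk region of the large subunit, where translation factors dock, and MRPL12 has also been described as a partner of the mitochondrial RNA polymerase. MRPL12 was the only member whose −log10 p reached the lists' upper limit of 400, in 2 clusters of replicate 1 and 1 of replicate 2. By level it was the seventh of the 10. The region at chromosome 17, 79674285 to 79674360 (+), had 4.04 and 4.30 in replicates 1 and 2 and an authors' value of 4.18, and the one after it, 79674373 to 79674518, had 3.84 and 3.92, with a second replicate 2 cluster at 4.04. A further pair of touching regions lay far upstream, at 79671274 to 79671275 and 79671276 to 79671360, with authors' log2 folds of 3.09 and 3.22.

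MRPL11 was the member whose strongest region did not lie near the 3′ end. Its window is chromosome 11, 66202500 to 66206400 (-), and the region at 66206105 to 66206198 began 203 bases from the 5′ edge. That region had log2 folds of 3.57 and 3.18 in replicates 1 and 2, and an authors' value of 3.33. The only other region was 9 bases long, at 66203575 to 66203583, with 2.92 and 3.40. The highest clusters of the 2 replicates were at different places, 4.02 at 66203388 to 66203443 in replicate 1 and 3.53 at 66204823 to 66204890 in replicate 2. Its highest −log10 p was the lowest such maximum of the 10 genes, at 7.17 in replicate 1 and 10.1 in replicate 2.

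MRPL23, which sits at the exit of the peptide tunnel, held the single highest cluster of the set. This was in replicate 2 at chromosome 11, 1977725 to 1977765 (+), where eCLIP was 162-fold over input (log2 fold 7.34). Replicate 1 had 1 wider cluster there, 1977680 to 1977798, at 5.40. The 5 regions from 1977517 to 1977798 had authors' log2 folds of 3.75, 5.12, 6.36, 6.18 and 5.60. Only 19 of the 7153 series-wide regions had a value as high as the 6.36 of 1977682 to 1977724, that region included. The clusters behind that region had 5.40 in replicate 1 and 6.28 in replicate 2, so the authors' value lay above both. Between this end and the start of the window the clusters were lower. They ran from 0.31 to 2.92 in replicate 1 and from 0.13 to 3.15 in replicate 2. The enriched ones among them were in replicate 2, at 1972177 to 1972250 (3.15) and at 1977493 to 1977497 (3.07). By its mean over clusters the gene was the sixth. A 19-base region at 1968591 to 1968609, at the 5′ end, had 3.18 and 4.14, with a second replicate 2 cluster at 4.26.

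MRPL28 and MRPL34 have bacterial counterparts in the large subunit. MRPL28 gave nearly the same level in both replicates, 3.57 and 3.56. Its 4 regions touched or nearly touched, from 417405 to 417780 on chromosome 16 (-), and their authors' log2 folds were 3.57, 4.29, 4.09 and 3.28 from 5′ to 3′. The highest cluster was 4.87 at 417570 to 417603 in replicate 1 and 4.26 at 417436 to 417591 in replicate 2. All 4 regions lay on the 3′ side of the window, and the clusters further upstream were at or below 3.18 in both replicates.

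MRPL34 was enriched at all 5 clusters of replicate 1 but at 3 of 7 in replicate 2, the largest difference in that share among the members. Its regions at chromosome 19, 17416715 to 17416767 and 17417064 to 17417243 (+), had 3.35 and 3.43 in replicate 1 but 2.79 and 2.12 in replicate 2, where a second cluster of the longer region had 2.76. The region at 17417250 to 17417323 went the other way, at 3.05 and 5.26, and had the highest authors' value of the gene, 4.19. Its −log10 p values reached 18.3 in replicate 1 and 10.2 in replicate 2.

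MRPS12, a protein of the decoding centre, and MRPS2 are small-subunit proteins with bacterial counterparts. MRPS12 had the most series-wide regions of the 10, with 9, and 9 of 11 clusters enriched in replicate 1 and 11 of 12 in replicate 2. From 39422974 to 39423507 on chromosome 19 (+), 7 regions followed closely, with authors' log2 folds of 3.18, 3.43, 3.51, 4.07, 4.25, 4.25 and 4.0. The replicates were 4.53 and 4.58 at 39423282 to 39423319 but 5.30 and 3.18 at 39423320 to 39423376.

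MRPS2 had the lowest level, at 2.59 in replicate 1 and 3.17 in replicate 2, with 2 enriched clusters in each. Both of its regions lay near the 3′ end, at chromosome 9, 138395967 to 138396096 (+) with 3.26 and 4.27 and an authors' value of 3.89, and 138396361 to 138396466 with 3.37 and 3.33. The other clusters of this gene stayed at or below 2.87.

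The signal of these genes lay mainly towards their 3′ ends. In all 10 members the width-weighted mean log2 fold was higher on the 3′ side of the window's midpoint than on the 5′ side, averaged over replicates. It was higher on the 3′ side in each replicate for 9, and the exception was MRPL11, with a difference of 0.66 in replicate 1 and −0.37 in replicate 2. The difference was largest for MRPL23, at 2.31 ± 0.01 (SD, n = 2), and MRPL54, at 2.14 ± 0.32. It was under its own replicate SD for MRPL34 (0.45 ± 0.51) and MRPL11 (0.14 ± 0.73), and about equal to it for MRPS34 (1.76 ± 1.76). Among 9049 loci without a member and with the same range of cluster numbers, 56.1% had a higher mean on the 3′ side, there split at the middle of the span from first to last cluster. Split in that way, 10 of the 10 members were higher on the 3′ side too. No annotation of exons or untranslated regions on hg19 was used, so positions are given within the windows alone.

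**Figure D2:**
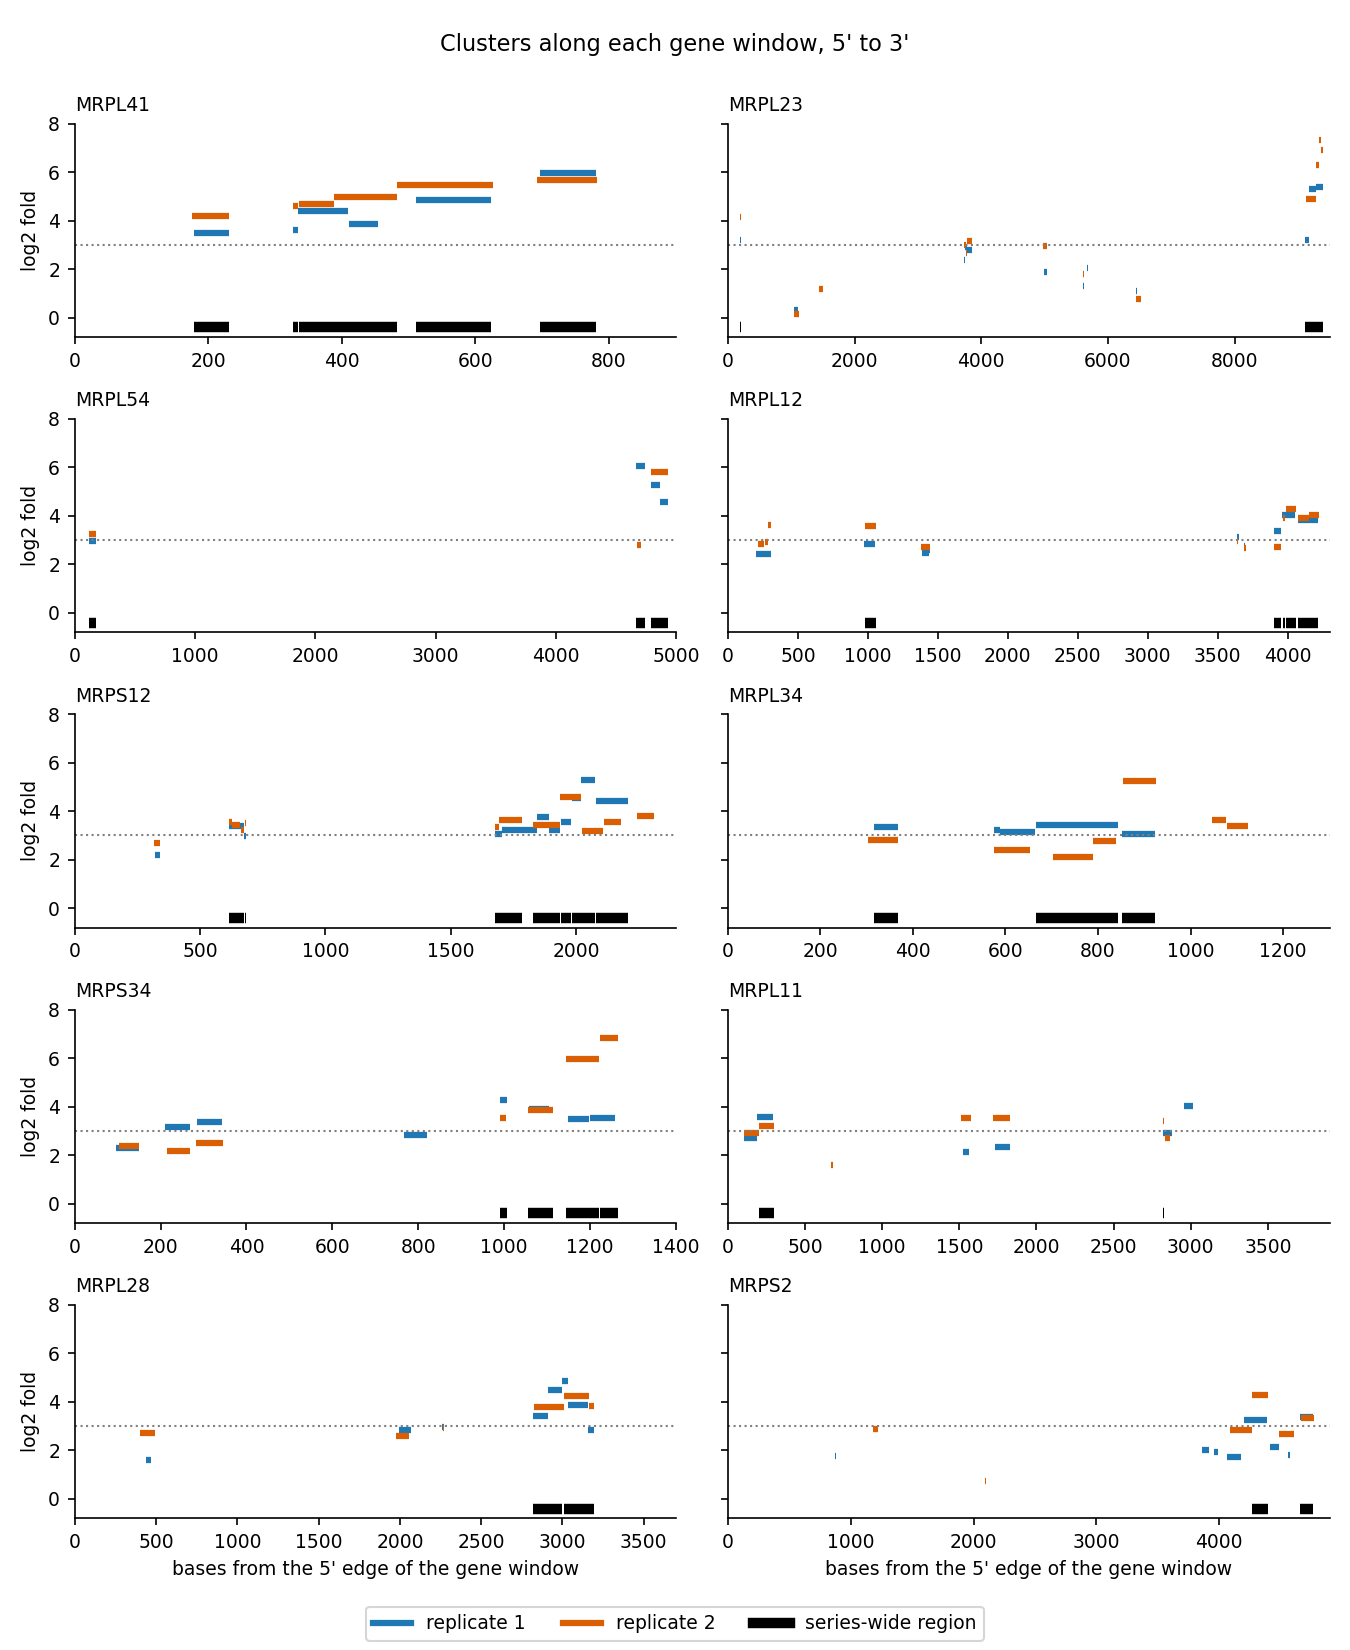
Clusters of both replicates along each of the 10 gene windows, with bases from the 5′ edge on the horizontal axis and log2 fold over input on the vertical axis, ordered by level down the left column and then the right. Black bars mark series-wide regions and the dotted line a log2 fold of 3. The highest series-wide region lies in the right-hand part of every panel but that of MRPL11.

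The last 20% of the window length was the best covered part. No share over other loci was taken for this part, so the counts below describe the members alone. It held 42.5% of the bases in member clusters in replicate 1 and 42.3% in replicate 2, and 52.7% and 52.5% of the bases in enriched clusters. Of the 45 series-wide regions, 22 lay there, or 48.9%, and 3 lay in the first 20%. There, 77.8% of clusters were enriched in replicate 1 and 79.3% in replicate 2, while the first 20% had 3 of 12 and 5 of 15. The width-weighted mean log2 fold in the last 20% was 4.0 in replicate 1 and 4.27 in replicate 2, and at the start it was 2.49 and 2.46. An enriched cluster was present in the last 20% in 8 members in replicate 1 and 9 in replicate 2. The highest cluster lay in the last 20% in 7 members in replicate 1 and 8 in replicate 2, and the highest series-wide region in 7. For 9 of the 10 genes, the highest series-wide region ended within 500 bases of the last covered base, and for MRPL11 it ended 2717 bases before it. That distance is long beside the shortest windows, 901 bases for MRPL41, 1301 for MRPL34 and 1401 for MRPS34, so this count is a loose one.

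**Figure D3:**
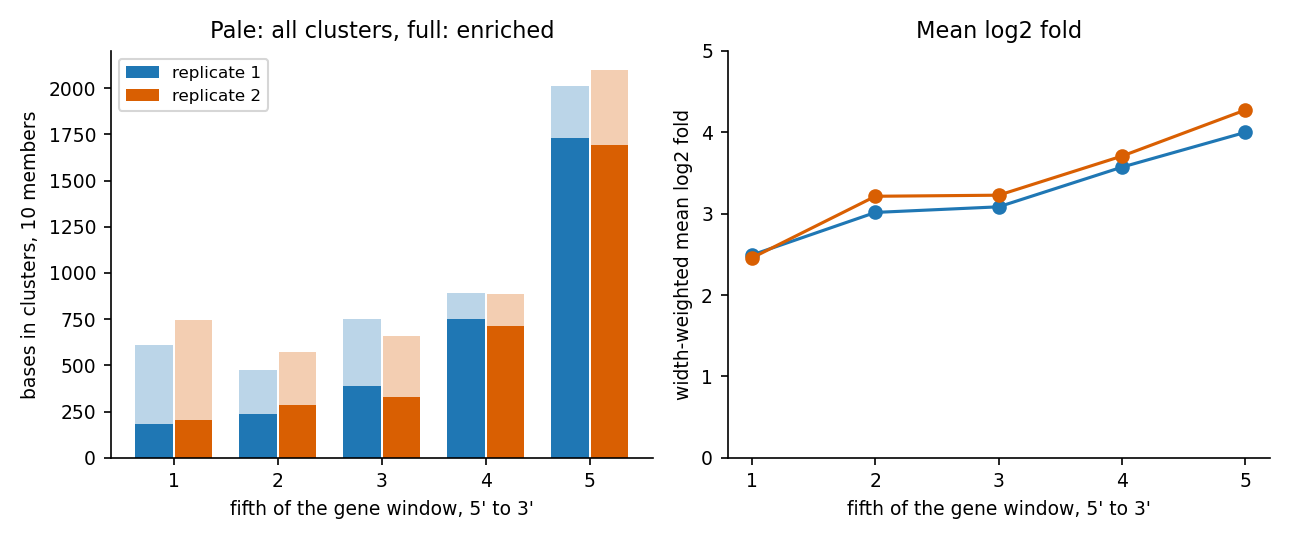
Bases in clusters of the 10 genes (left, pale for all and full colour for enriched clusters) and width-weighted mean log2 fold (right) in 5 equal parts of the gene window from 5′ to 3′, for each replicate. Covered bases, enriched bases and mean fold were all highest in the part at the 3′ end, where the mean was 4.0 and 4.27.

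Replicates recovered largely the same stretches of these mRNAs. A partner in replicate 2, sharing at least 1 base, was present for 71 (91.0%) of the 78 replicate 1 clusters, against 44.8% of all other clusters. Both clusters of a pair were enriched at 35 of the 71, just the replicate 1 cluster at 9, just the replicate 2 cluster at 8, and no cluster at 19. Of the pairs enriched in replicate 1, 79.5% (95% Wilson interval 65.5 to 88.8) were enriched in replicate 2. Among all other overlapping pairs it was 66.6% (65.5 to 67.7), and these intervals overlap. Clusters without a partner are left out of both shares. They rest on 44 of the 45 enriched member clusters of replicate 1 and on 7471 of the 8568 others. The sizes of the folds agreed no better than elsewhere. The replicates were within 1 log2 unit at 73.2% of member pairs and 73.4% of all others, and the SD of a single value was 0.70 and 0.67. The folds of the 71 member pairs had a Pearson's r of 0.65 and a Spearman's rho of 0.65, a description across clusters that share genes and libraries. The 2 widest gaps were the MRPS34 cluster at its 3′ end (3.53 in replicate 1 and 6.83 in replicate 2) and the MRPL54 cluster described above (6.04 and 2.82).

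**Figure D4:**
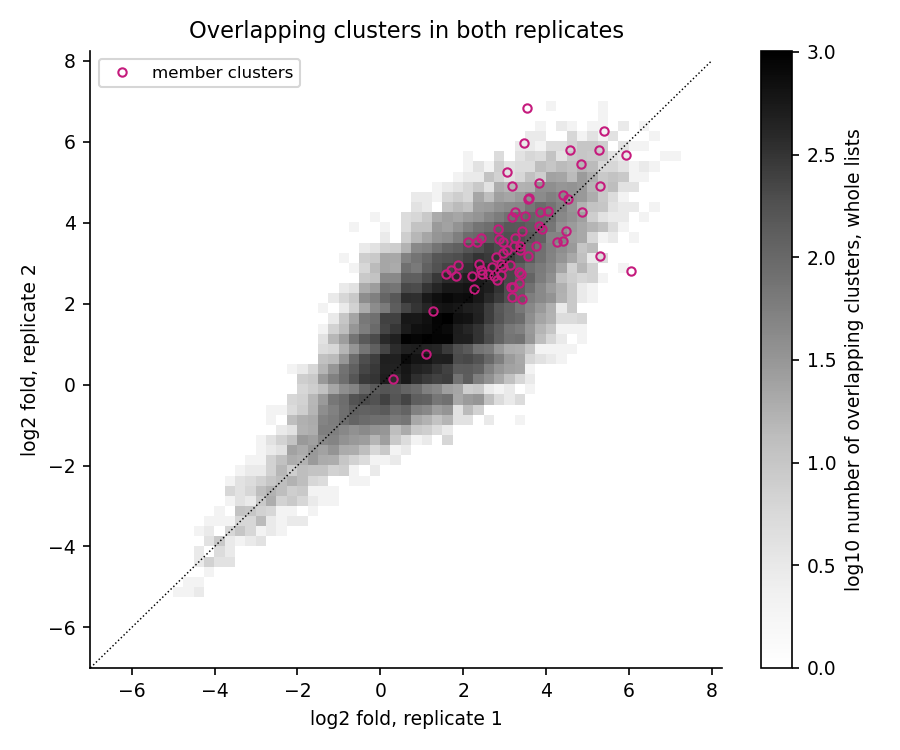
Log2 fold over input in replicate 1 (horizontal) and replicate 2 (vertical) for overlapping clusters. Circles are the 71 member pairs, grey squares count all overlapping clusters on a log10 scale, and the dotted line marks equal values. The circles lie in the upper right, with folds above 0 on both axes.

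The series-wide regions of the members had authors' log2 folds of 3.03 to 6.36, with a median of 3.89, against a median of 3.65 over all 7153 regions. Since that list holds only values of 3 or more, a region's presence in it says that the value was high, and the medians compare sizes among high values. Of the 45 member regions, 29 were above the overall median. The cluster behind the region was enriched in replicate 1 at 39, in replicate 2 at 41 and in both at 35. Each of these regions has the edges of a cluster of 1 of these replicates, so the counts are no independent check. No share over all 7153 regions was taken beside them. Together the member regions covered 3128 bases, with 557 in MRPS12, 409 in MRPL41 and 103 in MRPL11 at the low end.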

How the data were processed

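Per the labels' protocols, reads went through an eCLIP pipeline used by the authors. UMI-tools 1.0.0, cutadapt 1.14, STAR 2.7.6a, SAMtools 1.6 and the build hg19 were used, per the submitters' processing notes. The caller, its thresholds and the input set against each replicate are not stated there. In the deposited lists each interval has a −log10 p with an upper limit of 400 and a log2 fold over input. With no header, both meanings rest on the values. Starts were converted to positions counted from 1.

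Intervals overlapping a window by at least 1 base on its strand were taken, with gene windows given by name and coordinates. Members, lists and thresholds were chosen with earlier results of these data known, so no set was tested. All 10 members are named, and for each the highest cluster of each replicate and the highest series-wide region are given. Further regions were picked after their values were seen. Between replicates, the partner with the longest overlap was used. Width-weighted means were taken per replicate, then averaged. Overlap, locus and window functions were checked on simulated intervals. The tools were pandas 2.3.3, numpy 2.4.6, SciPy 1.17.1 and matplotlib 3.10.9 under Python 3.11.15.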

Additional observations from a re-analysis of the deposited data

How the results depend on the processing

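Of 37 alternatives over 7 results, 27 left the value within 1.5 times of that reported and 10 moved it. For the median level the limit was instead its SD of 0.11 over the replicates. Some of the 27 could hardly move. A count of 10 of 10 members in both replicates cannot change under looser thresholds or when 1 replicate is dropped. The median level of 1 replicate was held to an SD made from the same 2 values. The 27 is therefore no measure of robustness. Enriched member clusters, 45 of 78 in replicate 1 and 51 of 83 in replicate 2, were 16 and 21 with the log2 fold threshold at 4. They were 72 and 77 with it at 1. With touching clusters merged they were 27 and 32, out of fewer clusters. Overlapping clusters enriched in both replicates, 35 of 71 as reported, were 10 with the threshold at 4 and 65 with it at 1. The share of all clusters was not taken at these settings, so these counts show only how the members' own counts move. The median level was 3.28 with an unweighted mean over clusters and 4.75 with the highest cluster of each gene. The count of 10 members with an enriched cluster in both replicates lay between 7 and 10, and that of members higher on the 3′ side was 9 without replicate 1 and 10 otherwise. No paired analysis was possible because input values are present only within the authors' folds and no test was made. With read depth unknown, single folds have no interval.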

Other observations

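The opposite strand of the 10 windows held 5 clusters in replicate 1 and 4 in replicate 2, where the strand of the genes held 78 and 83. All were in the windows of MRPS2 and MRPS12, and none was enriched. With 5.01% and 5.50% of all clusters enriched, so few clusters would seldom include an enriched one. No share over other windows was taken. The highest opposite-strand cluster had a log2 fold of 3.11 in replicate 1 and 2.82 in replicate 2, both opposite MRPS2. The opposite strand held no series-wide region.

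Each of the 45 series-wide regions of these genes had exactly the edges of a cluster of 1 replicate, 21 from replicate 1 and 24 from replicate 2. The authors' series-wide log2 fold lay close to the mean of the overlapping replicate clusters, with a median absolute difference of 0.05 and a largest one of 0.54. No overlapping pair of member clusters had both edges in common. Among all other overlapping pairs 0.459% did, and at so low a share 71 member pairs are too few to show a difference.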
